A study of Mus musculus with 5 samples.

Results

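Semaphorins, plexins and neuropilins are a family of guidance ligands and their receptors, and their transcripts were measured in Ptf1a null and Ptf1a heterozygote dorsal pancreatic buds. The family comprised 31 named genes, 20 ligands and 11 receptors, out of 18193 genes with a symbol of their own on the array. All probe sets of the neuropilins Nrp1 and Nrp2 were taken, and each of the other genes stands for itself through the brightest of its probe sets on average, which gave 37 of 45037 probe sets. The 31 genes have 78 probe sets in all, and the remaining ones are described where they bear on a gene. Semaphorins share a domain of the same name and are either secreted (class 3) or anchored in the membrane (classes 4 to 7). Plexins are their signalling receptors, with an intracellular domain that acts on small GTPases. Neuropilins have a short intracellular tail, hold most class 3 semaphorins for a plexin partner, and also bind VEGF family growth factors. The family steers axons, neural crest cells and vessels, and in the later mouse pancreas neuropilin 2 and semaphorins from the surrounding mesenchyme have been linked to the position of the islets.

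The nulls were 3 arrays and the heterozygotes 2 arrays, each of RNA from a pool of 3 dorsal buds taken at E10.5 (counted in days after mating) from C57BL/6J embryos. Both genotypes came from matings of heterozygous adults, so that each bud compared lacked at least 1 working copy of Ptf1a, which encodes a basic helix-loop-helix factor needed for pancreas formation. Mesenchyme was dissected off mechanically, and the RNA went through 2 rounds of linear amplification from its poly(A) end. The labels do not give the litters of the pools or the part of Ptf1a that is deleted. Any p-value sets the genotype difference against the variation between such pools, and litter cannot be told apart from genotype with these labels. Arrays of wild-type buds were not analysed here. Signals are log2 values after quantile normalisation of the deposited intensities, and a difference is null minus heterozygote on that scale.

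Array median intensities lay between 13.7 and 17.5, and array pairs correlated at 0.849 to 0.854 within a genotype and at 0.838 to 0.862 between genotypes. A background level, from 27 control probe sets for bacterial genes, lay between 3.03 and 3.29. It was highest on heterozygote replicate 2, where 60.9% of probe sets were above it, against 63.0% to 65.2% on the other arrays. All 12 bud epithelium markers (among them Pdx1, Sox9 and Cdh1) were above background on every array. So were 7 of 16 mesenchyme, 8 of 11 neuron and 8 of 9 erythroid markers, and the purity of the buds was not tested. Ptf1a itself had signals of 5.21, 6.07 and 5.00 in nulls, against 7.10 and 7.33 in heterozygotes (difference -1.79, SE 0.47, limma adjusted p = 0.651 untrended and 0.457 trended). Whether this probe set lies in the deleted part is not known. Differences were tested with limma in a form with 1 common prior variance (untrended) and in a form whose prior follows signal level and resists outlying variances (trended). The untrended fit called 0 of 45037 probe sets at an adjusted p under 0.05 (0%), with 2484 at an unadjusted p under 0.05, and the trended fit called 8 (0.0178%), with 2219. Of the 8, 5 were higher in nulls (0.0111%) and 3 lower (0.00666%).

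Nrp2 was the member with a call. It encodes neuropilin 2, a receptor for Sema3f, Sema3c and VEGF-C, and at probe set 1435349_at its signal was 9.76, 9.44 and 9.26 in nulls, against 8.03 and 7.25 in heterozygotes. Every null pool lay above both heterozygote pools, and heterozygote replicate 2 was the lowest. The mean was 9.49 ± 0.25 (SD, n = 3) in nulls and 7.64 ± 0.55 (SD, n = 2) in heterozygotes, a 3.60-fold higher signal in nulls (difference 1.85, SE 0.42). Nrp2 rose in the trended fit (limma adjusted p = 0.0382, 95% interval 1.29 to 2.41) and missed the threshold in the untrended fit (adjusted p = 0.556, 95% interval 0.75 to 2.94). The trended call was kept without heterozygote replicate 1 (adjusted p = 0.0354). It was lost without null replicate 1 (0.589), null replicate 2 (0.294), null replicate 3 (0.295) or heterozygote replicate 2 (0.211), and also with median centring (0.143), no normalisation (0.472) or dim probe sets left out (0.0543), alternatives chosen after the data had been seen. Neural crest and mesenchyme markers were also higher in nulls, as described with the marker lists, and in these pooled buds fewer cells of a type and less RNA per cell cannot be told apart.

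**Figure D1:**
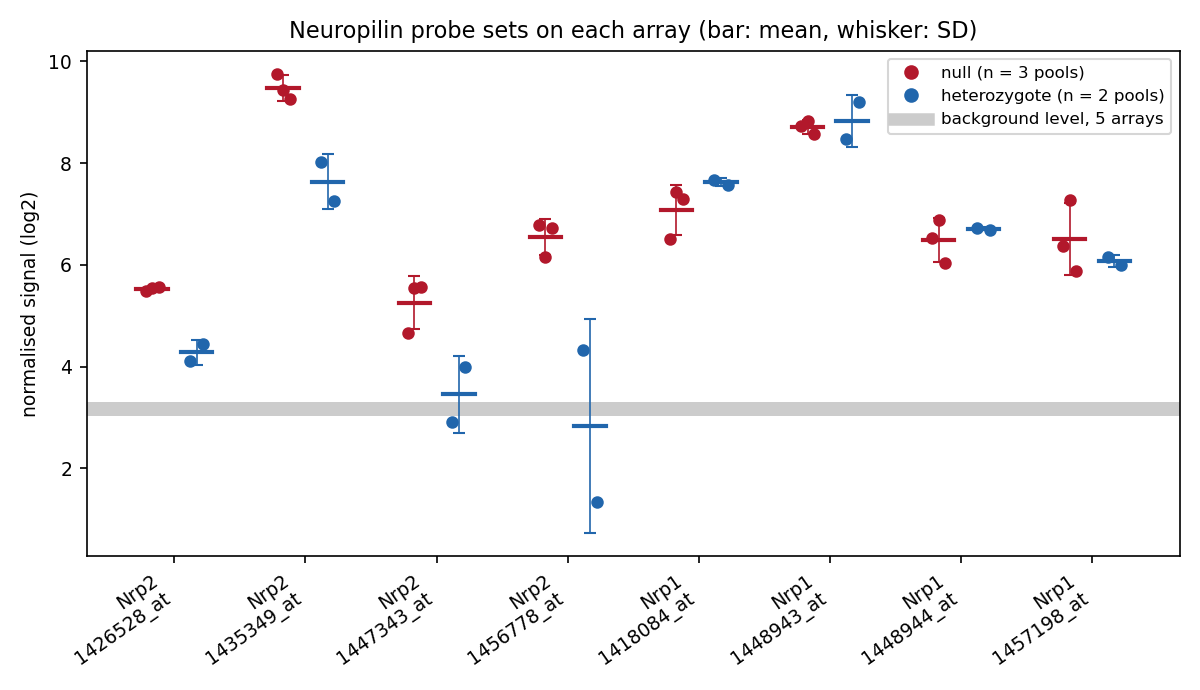
Normalised log2 signal of the 4 Nrp2 and 4 Nrp1 probe sets in null (left of each pair, n = 3 pools) and heterozygote buds (right, n = 2 pools), with points for arrays, bars for means and whiskers for SD; the grey band is the range of the background level. Null points lie above heterozygote points at all 4 Nrp2 probe sets, while at 3 of the 4 Nrp1 probe sets the genotypes overlap.

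The other 3 Nrp2 probe sets did not pass in either fit, although null and heterozygote pools were apart at each. At 1426528_at the signal was 5.48, 5.55 and 5.56 in nulls, against 4.11 and 4.45 in heterozygotes (difference 1.25, limma adjusted p = 0.696 untrended and 0.976 trended). At 1447343_at it was 4.65, 5.55 and 5.57 in nulls, against 2.92 and 3.99 in heterozygotes, where replicate 1 was below background (difference 1.80, adjusted p = 0.779 and 0.965). At 1456778_at it was 6.77, 6.15 and 6.72 in nulls, against 4.32 and 1.34 in heterozygotes. There heterozygote replicate 2 was below background and set the size of the difference, which was 3.72 with it and 2.23 without it (adjusted p = 0.632 untrended and 0.237 trended with all arrays). Without heterozygote replicate 1 the difference at this probe set was 5.21, with a trended adjusted p of 0.0238, and with values raised to background the trended fit gave 2.74 (adjusted p = 7.52e-05). The 4 probe sets report the same gene and the same pools, so they are not independent of each other.

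Nrp1 encodes neuropilin 1, a receptor through which Sema3a and VEGF-A act, and none of its 4 probe sets was called. All of them were above background on every array. At 1448943_at the signal was 8.74, 8.84 and 8.57 in nulls, against 8.48 and 9.20 in heterozygotes, with overlapping groups and a difference of -0.12 (95% interval -1.15 to 0.91, untrended limma adjusted p = 0.999). The probe set 1418084_at was lower in every null pool, at 6.52, 7.43 and 7.30 in nulls, against 7.68 and 7.57 in heterozygotes (difference -0.54, 95% interval -1.67 to 0.59). At 1448944_at nulls had 6.53, 6.89 and 6.03, against 6.73 and 6.69 in heterozygotes, a difference of -0.22. At 1457198_at they had 6.38, 7.27 and 5.87, against 6.16 and 6.00 in heterozygotes, a difference of 0.43, so the probe sets of Nrp1 did not share a direction. The intervals leave room for changes of either sign at each of them.

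Among plexins, 0 of 9 genes were called by either fit, beside 0% (untrended) and 0.0178% (trended) of all probe sets. No chosen probe set separated the genotypes, against 20% of all probe sets that did so in either direction. With 9 genes this is not read as a result about plexins. Plexin A proteins are the usual partners of neuropilins. Plxna2 had a difference of -0.47, Plxna1 of -0.21, Plxna4 of -0.06 and Plxna3 of 0.38, and Plxna4 was above background on 1 null array alone. Plxnb1, the receptor of Sema4d, had 9.43, 9.68 and 9.62 in nulls, against 9.45 and 9.09 in heterozygotes (difference 0.31, 95% interval -0.60 to 1.22). Plxnb2, a receptor of class 4 semaphorins, had 7.14, 7.01 and 7.80 in nulls, against 7.38 and 5.94 in heterozygotes. Its difference of 0.66 was -0.065 without heterozygote replicate 2. Plxnd1, the receptor that Sema3e binds without a neuropilin and that is known from endothelium, had 4.61, 6.15 and 6.39 in nulls, against 4.27 and 5.54 in heterozygotes, with overlap (difference 0.81, 95% interval -1.12 to 2.74, and 0.18 to 1.44 with an array left out). Plxnc1, the receptor of Sema7a, differed by 0.52 and Plxnb3, a receptor of Sema5a, by -0.03. At a second probe set of Plxna2, 1453286_at, every null pool was below both heterozygote pools (5.27, 5.56 and 5.76 in nulls, against 6.27 and 6.44 in heterozygotes), a difference of -0.82 that did not pass (limma adjusted p = 0.942 untrended). A second probe set of Plxna3, 1420995_at, ran the other way, with every null pool above both heterozygote pools. It had 4.84, 4.91 and 4.62 in nulls, against 4.58 and 3.04 in heterozygotes, where replicate 2 was below background. The difference of 0.98 rested largely on that array and did not pass either (limma adjusted p = 0.986 untrended).

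The 7 secreted class 3 semaphorins held the largest contrasts among ligands above background on all arrays, and they ran in both directions, without a call in the untrended or the trended fit. Sema3c, a ligand of both neuropilins known from neural crest and outflow tract development, was higher in nulls, at 8.69, 8.65 and 8.13 in nulls, against 6.95 and 7.54 in heterozygotes for 1429348_at. The mean was 8.49 ± 0.31 (SD, n = 3) in nulls and 7.25 ± 0.41 (SD, n = 2) in heterozygotes, a difference of 1.25 (SE 0.41, 2.37-fold, limma adjusted p = 0.823 untrended and 0.461 trended). The trended fit called it when values were raised to background (adjusted p = 0.0136), an alternative chosen after the data had been seen. Its other probe set, 1420696_at, had 6.61, 7.34 and 6.42 in nulls, against 5.18 and 6.35 in heterozygotes (difference 1.03). The null pools were thus the higher ones at both Sema3c probe sets.

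Sema3f, a semaphorin that signals through neuropilin 2, ran the other way. At 1425840_a_at its signal was 5.51, 5.34 and 5.42 in nulls, against 6.88 and 6.70 in heterozygotes. The mean was 5.42 ± 0.08 (SD, n = 3) in nulls and 6.79 ± 0.13 (SD, n = 2) in heterozygotes, so that the genotypes stood apart by far more than pools of 1 genotype did (difference -1.37, SE 0.34, 2.59-fold). The difference did not pass adjustment over all probe sets (limma adjusted p = 0.61 untrended and 0.769 trended). With an array left out, the difference ranged from -1.46 to -1.28. At 1420508_at nulls had 3.61, 4.48 and 4.30, against 5.88 and 5.03 in heterozygotes (difference -1.33). At 1438947_x_at they had 4.77, 5.43 and 5.24, against 5.67 and 6.09 in heterozygotes (difference -0.74). Every null pool was therefore below both heterozygote pools at all 3 Sema3f probe sets, each of which was above background on every array. The suffix _x_at marks a probe set that can match several transcripts.

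**Figure D2:**
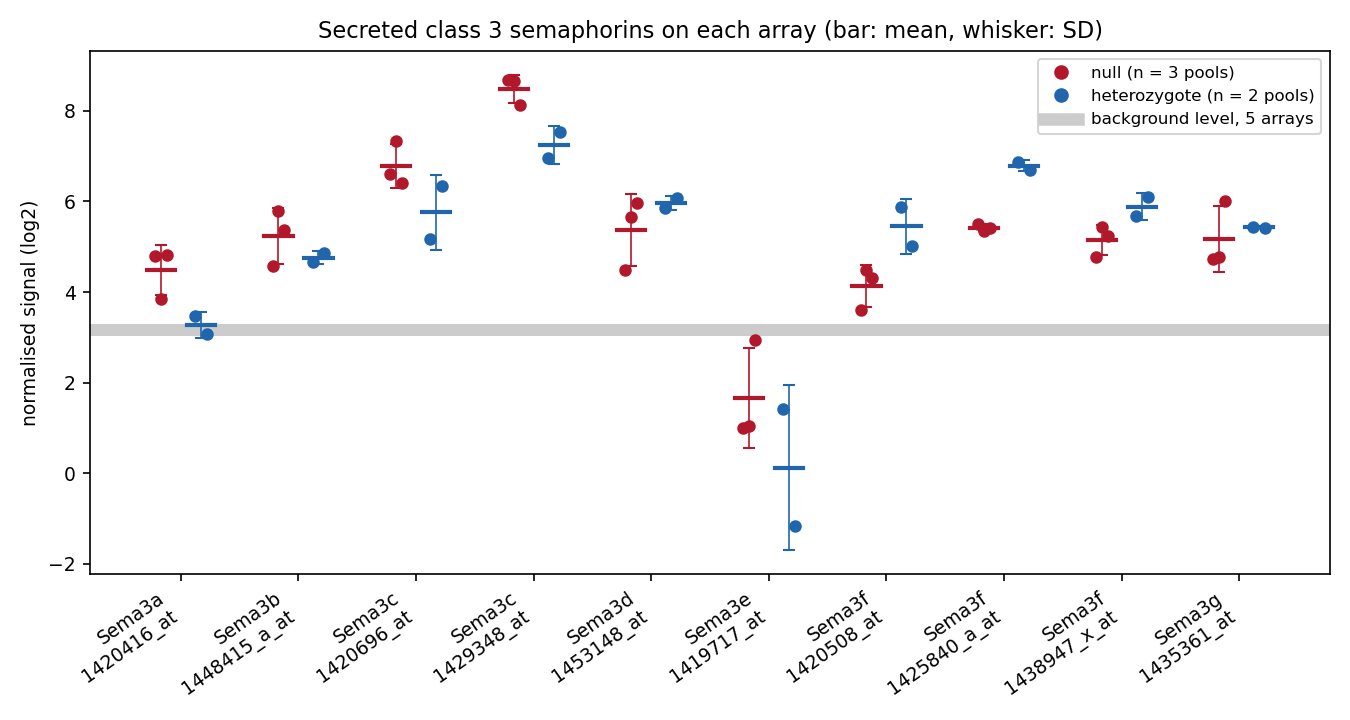
Normalised log2 signal of the class 3 semaphorins in null (left of each pair, n = 3 pools) and heterozygote buds (right, n = 2 pools), with all probe sets of Sema3c and Sema3f and the chosen probe set of the others; bars are means, whiskers SD, and the grey band the background level. Null points lie higher at both Sema3c probe sets and lower at all 3 Sema3f probe sets.

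The remaining class 3 ligands were dimmer or overlapped. Sema3a, a repellent of axons that acts through neuropilin 1, had 4.79, 3.84 and 4.82 in nulls, against 3.48 and 3.08 in heterozygotes at 1420416_at, where heterozygote replicate 2 was below background (difference 1.21, limma adjusted p = 0.913 untrended). Its other probe sets, 1420417_at and 1449865_at, had differences of 0.85 and -1.02 and were below background on all arrays but heterozygote replicate 2 at 1449865_at. Sema3e, the ligand of Plxnd1, was above background on no array at its chosen probe set, where it had 1.00, 1.05 and 2.94 in nulls, against 1.42 and -1.17 in heterozygotes, so its measured difference of 1.54 carries no fold. Sema3d had a difference of -0.59, Sema3b of 0.49 and Sema3g of -0.26, each with overlapping genotypes.

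Of the 13 membrane-bound semaphorins, 0 were called, and 2 had higher and 3 had lower signal in every null pool, beside 9.9% and 10.1% of all probe sets. Sema5a, a transmembrane semaphorin that binds Plxnb3, had 6.26, 5.37 and 5.82 in nulls, against 6.95 and 6.77 in heterozygotes at 1437422_at (difference -1.04, SE 0.42, limma adjusted p = 0.928 untrended and 0.976 trended). At 1434776_at, also above background on every array, its difference was -0.43 with overlap. Sema4d, the ligand of Plxnb1, had 4.03, 4.31 and 4.41 in nulls, against 4.79 and 5.56 in heterozygotes (difference -0.92). Sema7a, which is held in the membrane by a lipid anchor and binds Plxnc1 and integrin beta 1, had 4.05, 3.70 and 4.57 in nulls, against 4.97 and 4.88 in heterozygotes (difference -0.82). The lowest heterozygote pool was above the highest null pool for each of these, and none passed (untrended limma adjusted p = 0.944 for Sema4d and 0.976 for Sema7a).

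Sema4a and Sema4b were the membrane-bound semaphorins with higher signal in every null pool, and both were at or below background in both heterozygotes. By its mean signals Sema4a was at least 1.26-fold higher in nulls, with 2 of 3 null arrays above background, at a probe set with the suffix _x_at. The interval of its difference held 0 (0.88, 95% interval -0.34 to 2.09, untrended limma adjusted p = 0.979). Its other probe set, 1448110_at, had a difference of -0.66 with overlap. Sema4b was above background on 1 null array, at 1.85, 2.48 and 3.16 in nulls, against 0.48 and 1.34 in heterozygotes, and no fold is given for it. The other Sema4b probe set, 1427586_at, was above background on 1 heterozygote array alone and had a difference of -1.39 with overlap. Sema6d, a ligand of Plxna1, had 6.48, 7.10 and 7.46 in nulls, against 6.43 and 6.68 in heterozygotes (difference 0.46, 95% interval -0.68 to 1.60), and all 4 of its probe sets had higher means in nulls (0.38 to 1.88). Only this chosen probe set, 1453055_at, was above background on every array. The 1.88 came from 1459318_at, where both heterozygote arrays were below background and the fold was at least 1.20. Sema4c, a ligand of Plxnb2, had 5.90, 6.89 and 6.71 in nulls, against 6.43 and 6.43 in heterozygotes, a difference of 0.07 (95% interval -1.09 to 1.23) whose sign changed with median centring. Sema6c had a difference of -1.01 with overlap, and 1 of its 3 null arrays was above background. Sema4f, Sema4g, Sema5b, Sema6a and Sema6b had differences between -0.24 and -0.10 at their chosen probe sets. At 1419328_at of Sema4f and 1425903_at of Sema6a, both above background on every array, every null pool was below both heterozygote pools. The differences were -0.85 and -0.84 (untrended limma adjusted p = 0.952 and 0.986). Two-way signs were seen too, with 0.39 at 1436458_at of Sema6a and 0.86 at 1435963_at of Sema5b, both with overlap.

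Counted over genes, 8 ligands had a higher and 12 a lower mean in nulls, with a median difference of -0.15, beside -0.01 over all probe sets, of which 49.3% were higher and 50.7% lower. The ligand median turned to 0.05 without heterozygote replicate 1 and was -0.016 without null replicate 1. Among receptors 6 were higher and 5 lower, with a median of 0.31, which was 0.13 with median centring and 0.088 without normalisation. The null pools were entirely above the heterozygote pools for 4 of 20 ligands and 1 of 11 receptors, against 9.9% of all probe sets. They were entirely below for 4 ligands and 0 receptors, against 10.1% of all probe sets. An unadjusted untrended p under 0.05 was found for 4 of 31 genes, 3 higher (Nrp2, Sema3c and Sema4b) and 1 lower (Sema3f), against 5.52% of all probe sets (3.11% higher and 2.4% lower). Of the 37 probe sets 7 had such a p, of which 4 were those of Nrp2. The trended fit also gave 4 genes, 2 higher and 2 lower, against 4.93% of all probe sets (2.84% higher and 2.08% lower), with Sema5a in place of Sema4b. All probe sets include many dim ones, whereas 24 of the 31 genes were above background on every array. Of the 20815 probe sets above it on every array, 317 had an unadjusted limma p under 0.05 untrended and 881 trended. Of the 24 genes, 3 and 4 did. No count is read as particular to the family.

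**Figure D3:**
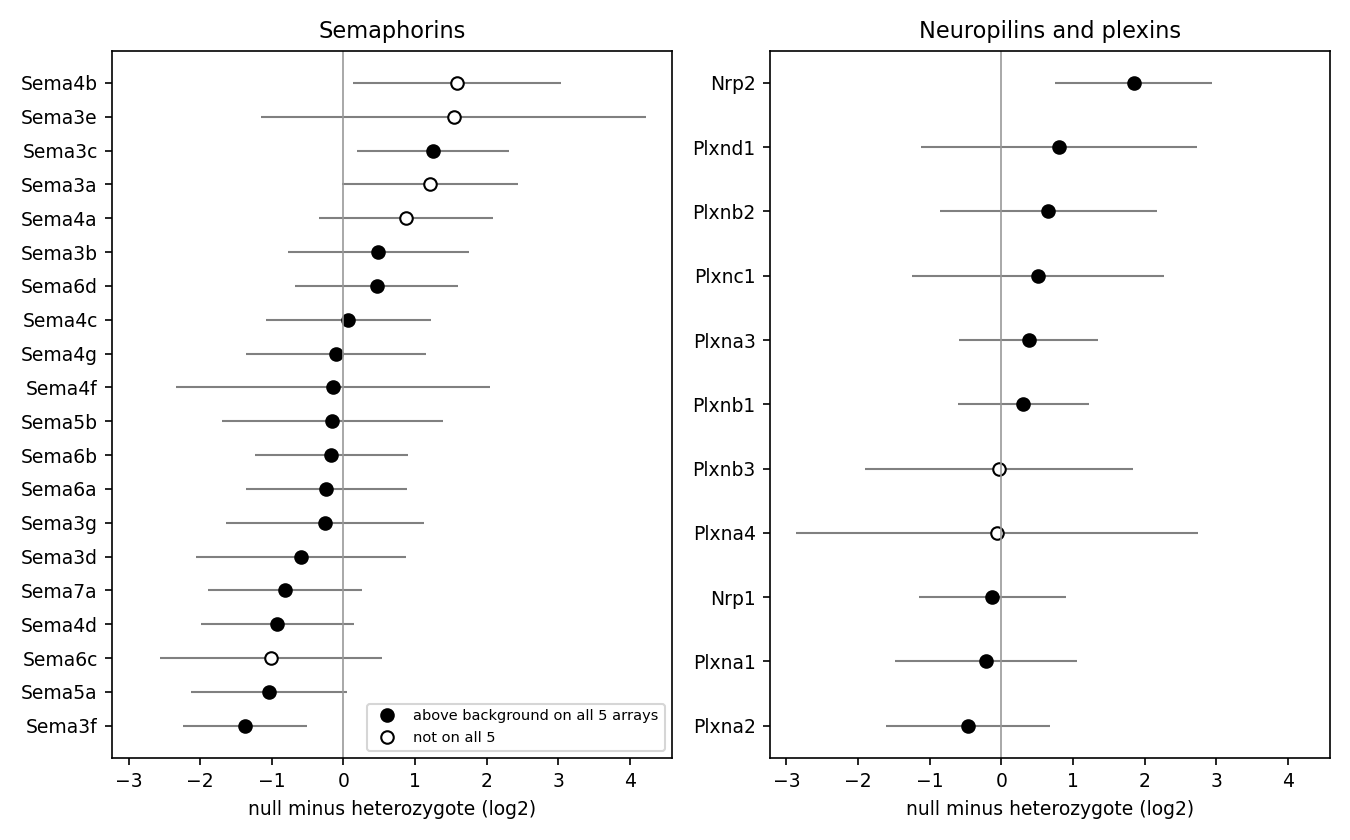
Difference in log2 signal, null (n = 3) minus heterozygote (n = 2), for the chosen probe set of each of 20 semaphorins (left) and 11 neuropilins and plexins (right); points are differences and lines 95% intervals of the untrended fit, and open points were not above background on all 5 arrays. Nrp2 stands highest among receptors at 1.85 and Sema3f lowest among ligands at -1.37.

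Where a gene had several probe sets, they often disagreed in sign. Of 25 such genes, 4 had higher means in nulls at every probe set (Nrp2, Sema3c, Sema6d and Plxna3), 4 had lower means at every probe set (Sema3f, Sema4f, Sema6c and Plxnb3), and 17 were mixed. For Plxnb3 the differences were -0.03 and -1.44, and neither was above background on every array. Null and heterozygote pools were apart at every probe set for Nrp2, Sema3c and Sema3f among these genes. Of all single probe sets on the array 20% showed no overlap, in either direction. Shares over all genes with several probe sets were not computed, so these counts are not read as particular to the family.

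The promoters of Nrp2 and Sema3c are shown because null pools were the higher ones at each of their probe sets and because Ptf1a is a factor of the class that binds E-boxes. RefSeq windows (GRCm38.p6, 250 bases before to 50 after the annotated start) were held for 26 of the 31 genes. The others, Sema3b, Sema3f, Sema6a, Plxna1 and Plxna4, are not shown. Capitals mark the E-box core CANNTG, searched on both strands. The Nrp2 window is chr1:62703067-62703366 on the plus strand and the Sema3c window chr5:17574566-17574865 on the plus strand.
Nrp2: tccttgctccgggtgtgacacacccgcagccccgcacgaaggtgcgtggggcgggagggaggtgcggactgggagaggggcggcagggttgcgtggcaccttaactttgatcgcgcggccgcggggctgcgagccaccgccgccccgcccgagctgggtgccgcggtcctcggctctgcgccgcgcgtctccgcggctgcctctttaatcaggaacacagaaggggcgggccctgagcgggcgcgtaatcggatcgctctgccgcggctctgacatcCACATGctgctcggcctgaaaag
Sema3c: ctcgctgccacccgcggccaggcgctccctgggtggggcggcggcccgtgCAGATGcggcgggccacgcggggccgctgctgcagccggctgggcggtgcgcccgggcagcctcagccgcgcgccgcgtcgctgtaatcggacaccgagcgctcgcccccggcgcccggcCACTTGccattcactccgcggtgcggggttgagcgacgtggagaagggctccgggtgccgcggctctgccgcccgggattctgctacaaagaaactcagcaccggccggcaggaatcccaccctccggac
The Nrp2 window held 1 E-box core, CACATG, that begins 27 bases after the start, and the Sema3c window held 2, CAGATG at 200 bases before it and CACTTG at 80 bases before it. Such a core was found in 72.3% of all 32851 promoter windows and in 56.8% of the 37 windows of family members, and a match is a description of the letters only. The TC-box letters TTTCCCA, the other element of sites bound by the Ptf1a complex, were in neither window on either strand and in 8.06% of all windows.

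No other gene of semaphorin and neuropilin signalling passed the test. Of 54 listed genes 52 were analysed here, 32 with a higher and 20 with a lower mean in nulls, a median difference of 0.07 and 0 calls in either fit. An unadjusted p under 0.05 was found for 1 gene untrended and 2 trended, beside 5.52% and 4.93% of all probe sets. VEGF ligands bind neuropilins beside their own receptors. Vegfc, a VEGF that binds neuropilin 2, had 6.61, 5.94 and 6.11 in nulls, against 5.38 and 5.28 in heterozygotes, with no overlap (difference 0.89, limma adjusted p = 0.942 untrended and 0.976 trended), at a probe set with the suffix _x_at. Vegfa had 6.63, 6.58 and 5.87 in nulls, against 5.51 and 5.95 in heterozygotes, which overlapped (difference 0.63, 95% interval -0.48 to 1.74).

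The remaining VEGF genes overlapped between genotypes and went both ways. Vegfb had 5.38, 5.20 and 5.42 in nulls, against 6.32 and 5.15 in heterozygotes (difference -0.41). Pgf had 4.20, 4.22 and 3.56 in nulls, against 4.67 and 2.35 in heterozygotes (difference 0.48). Vegfd had 3.33, 1.57 and 5.66 in nulls, against 4.42 and -1.27 in heterozygotes (difference 1.94). Leaving out 1 heterozygote array changed the sign of each. Among VEGF receptor genes, Kdr had 4.38, 4.61 and 5.33 in nulls, against 5.95 and 4.92 in heterozygotes (difference -0.66, and -1.18 to -0.15 with an array left out). Flt1 had 4.45, 5.67 and 5.40 in nulls, against 5.77 and 4.34 in heterozygotes (difference 0.12). Flt4 had 4.14, 4.81 and 5.11 in nulls, against 4.55 and 4.54 in heterozygotes (difference 0.14). The sign of Flt1 and of Flt4 changed when certain single arrays were left out. Inside the cell, Dpysl3, a member of the collapsin response mediator family that acts downstream of Sema3a, had 9.11, 9.21 and 9.16 in nulls, against 8.73 and 8.43 in heterozygotes (difference 0.58, limma adjusted p = 0.991 untrended and 0.976 trended). Rnd1, a small GTPase that binds plexins, had 1.60, 2.00 and 2.34 in nulls, against 2.87 and 4.08 in heterozygotes, and lay below background on all null arrays. Its null signal was lower by at least 1.30-fold (limma adjusted p = 0.86 untrended), and 1 of the 2 heterozygote arrays was above background.

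Markers of other cells differed between the same arrays. Neural crest and glia markers had a summed signal of 8.58 to 8.64 in nulls, against 7.82 to 8.09 in heterozygotes, and 6 of 8 markers analysed had higher means in nulls. All 8 were above background on at least 1 array. Mesenchyme markers had a summed signal of 10.40 to 10.73 in nulls, against 9.87 to 10.32 in heterozygotes, with 14 of 16 higher, and Twist1 was above background on no array. Both lists were lowest on heterozygote replicate 2. There their median marker was 0.80 (neural crest and glia) and 0.45 (mesenchyme) below its mean over the 5 arrays. Nrp2 was lowest on that array at 1435349_at and 1456778_at, but on heterozygote replicate 1 at 1426528_at and 1447343_at. Both Sema3c probe sets were lowest on heterozygote replicate 1. Endothelium markers spanned 8.06 to 9.11 in nulls and 8.13 to 8.87 in heterozygotes, with 6 of 12 higher, and neuron markers 10.72 to 11.06 in nulls and 10.54 to 11.03 in heterozygotes, with 5 of 11 higher. Bud epithelium markers spanned 12.38 to 12.75 in nulls and 12.20 to 12.50 in heterozygotes, with 3 of 12 higher. Their sum was set mostly by Krt8 (mean 11.74 in nulls, 11.29 in heterozygotes) and Krt18 (10.53 and 9.86). The median difference over the 12 markers was -0.30. Erythroid markers, which like Sema3f were lower in nulls, spanned 12.96 to 13.12 in nulls and 13.22 to 13.55 in heterozygotes, with 1 of 9 higher. Leukocyte markers spanned 6.96 to 7.65 in nulls and 7.01 to 8.20 in heterozygotes, with 3 of 10 higher and C1qa above background on no array. None of these markers was called in either fit. The part of mesenchyme, neural crest and blood cells in the Nrp2, Sema3c and Sema3f differences was not tested.

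**Figure D4:**
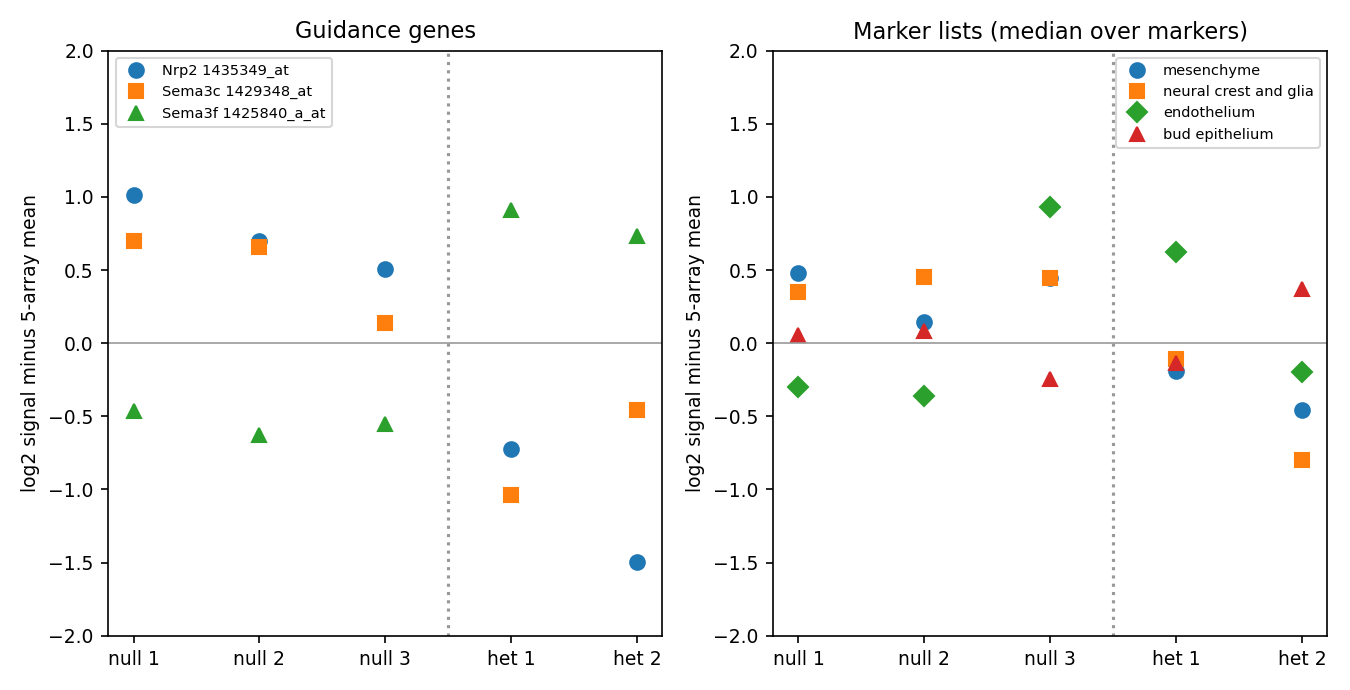
Log2 signal minus its mean over the 5 arrays, for Nrp2, Sema3c and Sema3f (left) and for the median of 4 marker lists (right), on the 3 null arrays followed by the 2 heterozygote arrays. Nrp2, mesenchyme, and neural crest and glia markers lie above 0 on the null arrays and below 0 on the heterozygote arrays, and Sema3f lies the opposite way.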

How the data were processed

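The authors deposited 1 table of linear signal intensity for 45101 probe sets on 5 Affymetrix mouse genome arrays. Per the submitters' processing notes GCOS and RMA were used, with no version or role given, and how background was subtracted is not stated. Array medians of the deposited intensities spanned 0.354 on the log2 scale, so log2 was taken with no offset added and the arrays were quantile normalised, as the design provided for linear values. The 64 control probe sets were left out, which left 45037. Gene names came from the platform annotation, and 34945 probe sets had 1 symbol, 932 several and 9160 none. The background level of an array was the 95th percentile of 27 Bacillus subtilis control probe sets. No detection calls were used. Where a genotype was at or below background on all its arrays, a fold is a lower bound: the mean of the brighter genotype over that of the dimmer one, whose arrays each count at background or their own signal, whichever is more. Such a bound is not a confidence limit.

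Nulls and heterozygotes were compared with limma 3.58.1 (lmFit, eBayes) in R 4.3.3, two-sided, with Benjamini-Hochberg adjustment over 45037 probe sets at 0.05. The untrended fit is the main one and the trended, robust fit the alternative. Both were tested on simulated data. With 3 against 2 arrays an exact permutation test cannot go below 0.1, so none is given. Precision is limited by how few arrays there are. Summed marker signal is log2 of the summed linear signal, so the brightest markers of a list weigh most in it. Values on every array are given for all Nrp1 and Nrp2 probe sets, for members with an unadjusted p under 0.05 in either fit, for the 3 brightest ligands and receptors and for the 3 of each with the largest difference among those above background on at least 1 array, and for pathway genes that have such a p or are VEGF ligands or VEGF receptors. Values on every array of Sema3a, Sema3e, Sema4d, Sema7a and of second probe sets were added after they were seen. The members, lists and tests were chosen with earlier results of these data known.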

Additional observations from a re-analysis of the deposited data

How the results depend on the processing

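The untrended fit called 0 probe sets and 0 family members under every alternative run with it, and 0 pathway genes were called under any of the 12 alternatives run for them. Calls under the trended fit numbered 8, and 1 of them was of the family, Nrp2 at 1435349_at. With an array left out it called 0 to 11 probe sets, of which 0 to 2 were of the family, both of them Nrp2 probe sets (1435349_at and 1456778_at, without heterozygote replicate 1). It called 0 without null replicate 1, 1 without null replicate 2 or 3, 11 without heterozygote replicate 1 and 4 without heterozygote replicate 2. In combinations chosen after the data had been seen, it called 4 with median centring, 2 without normalisation and 6 without dim probe sets, of which 0 were of the family in each. With an offset of 16 it called 10, of which 1 was Nrp2 at 1435349_at. With values raised to background it called 69 and with the replicate block 79. In each, 3 were of the family: Nrp2 at 1435349_at and at 1456778_at (adjusted p = 7.52e-05 raised and 6.18e-06 with the block) and Sema3c at 1429348_at (0.0136 raised and 0.00548 with the block). Raising values replaces the signals of 7729 probe sets that were never above background with the background levels of the arrays. All of these then have the same small spread. The block leaves 1 residual degree of freedom.

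Deviations from the genotype means correlated at -0.02 between the replicate 1 arrays and at 0.0080 between the replicate 2 arrays. The deviations of the 2 heterozygote arrays mirror each other, so these values cannot show whether replicate numbers mark a shared litter or batch. With the replicate block the untrended fit called 0 probe sets, and the Nrp2 difference at 1435349_at was 1.96 (limma adjusted p = 0.851). With the block the trended fit gave it an adjusted p of 3.46e-08. The receptor median of 0.31 was 0.13 with median centring and 0.088 without normalisation, and 0.24 to 0.41 with an array left out. The ligand median of -0.15 ranged from -0.25 to 0.05 with an array left out (0.05 without heterozygote replicate 1), and was -0.04 with the mean over all probe sets of a gene.

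Of 27 named probe sets 17 kept their sign in every alternative run for them, which were 23, or 21 for Rnd1, a dim probe set. Sema4b turned to -0.029 with values raised to background. Sema4c turned to -0.034 with median centring, -0.035 with the replicate block and -0.078 without normalisation, and ranged from -0.12 to 0.37 with an array left out. Nrp1 at 1448944_at was 0.0020 with the replicate block and ranged from -0.43 to 0.0020 with an array left out, and at 1448943_at from -0.49 to 0.24. Flt4 was -0.074 with the block and ranged from -0.074 to 0.41. Flt1 was -0.013 without normalisation and -0.13 without null replicate 2, and ranged from -0.60 to 0.83. With an array left out Plxnb2 ranged from -0.065 to 1.38, Pgf from -0.68 to 1.65, Vegfb from -0.99 to 0.18 and Vegfd from -0.90 to 4.79. The cause of these reversals was not tested. Dim signal limits Sema3a, Sema3e, Sema4a, Sema4b, Sema6c, Plxna4, Plxnb3, Rnd1, Pgf and Vegfd, which were at or below background on some or all arrays at the probe set chosen for each. Other probe sets were dim as well, among them 1459318_at of Sema6d and, on heterozygote replicate 2, 1420995_at of Plxna3.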
